A study of Mus musculus with 6 samples.

Results

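Mediator is the protein complex that carries signals from transcription factors bound at enhancers and promoters to RNA polymerase II. The genes of its subunits were followed here as a group: all rows of the deposited count table whose symbol is Med plus a number, with or without a final l, together with Ccnc, Cdk8 and Cdk19. The rule found 33 of 49492 rows, and no measured value entered it, though earlier results of these data were known when it was chosen. Each of the 33 symbols had 1 protein-coding gene in GENCODE M21, the GRCm38 annotation used for positions and lengths.

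The libraries came from RAW264.7, a transformed mouse macrophage line, transfected with an siRNA against Ep300 or with a negative control siRNA, each at 50 nM for 48 h. Controls carry the genotype label WT. Stranded mRNA libraries were made from total RNA, 3 per group, with replicate numbers 1 to 3. Each arm is described with 1 siRNA. Whether a group's libraries came from separately grown and transfected cells is not stated, so every p-value reflects the spread among these 6 libraries alone, and that spread may be technical.

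Mediator is built from a head and a middle, which touch the polymerase, and a tail, which many activators bind, all held on the long subunit MED14. A separate kinase module (MED12, MED13, cyclin C and CDK8 or its paralog CDK19) docks reversibly on this core, blocks polymerase binding while docked, and phosphorylates transcription factors. p300, the acetyltransferase that Ep300 encodes, sits at many of the same active enhancers, and in macrophages both serve inducible inflammatory genes. Subunits are given below by head, middle, backbone, tail and kinase module. MED27 to MED30 are set apart as an upper tail, since older schemes place some of them in the head.

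Ep300 itself was at 51.1, 59.0 and 55.0 CPM under its siRNA (CPM is the count relative to all counts of a library, with library sizes scaled by TMM, a method that aligns the bulk of genes between libraries). It was at 106.8, 115.3 and 118.4 CPM in the controls. The groups were far apart, at a log2 fold change of −1.04 ± 0.07 (SE, n = 3 per group, edgeR adjusted p = 3.62e-05), so the libraries matched their labels. Fold changes are Ep300 siRNA against control throughout. Total counts ran from 29993567 to 45377510 per library. All 10 macrophage markers examined, Spi1, Csf1r, Cd68 and Lyz2 among them, were above 1 CPM on average, with a summed level of 11130 to 12080 CPM after Ep300 siRNA and 9820 to 11480 CPM in controls. Lyz2 made up most of that sum. Mrc1 was by far the lowest of the 10, with 26 to 74 counts per library and a mean of 1.25 CPM. Its groups overlapped, at a log2 fold change of −0.42 (edgeR adjusted p = 0.435). Of the 10, Fcgr3 rose (log2 fold change 0.42, edgeR adjusted p = 0.00497). Cd14 at 0.25 and Cd68 at 0.13 had higher, non-overlapping groups but did not pass. The groups of Cd68 nearly met, at 774.4 CPM in the lowest Ep300 siRNA library and 773 CPM in the highest control. Csf1r at −0.23 and Adgre1 at −0.23 had lower, non-overlapping groups and did not pass either. Over all 15741 genes tested, the groups did not overlap for 27.5%. Of 16 markers of other cell types, Cd3g, Ncr1, Epcam and Alb had no count in any library, and the highest, Tubb3, averaged 1.04 CPM. Their summed level was 1.84 to 1.90 CPM after Ep300 siRNA and 1.69 to 2.34 CPM in controls. Ep300 siRNA replicate 1 stood apart in Gm42418, a row lying over ribosomal RNA sequence. As CPM of total counts, without TMM scaling, Gm42418 was at 5691 in that library and at 1322 to 2148 elsewhere. Its part in the results was not tested beyond the values given without that library.

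With Ep300 mRNA roughly halved in level, the mRNAs of Mediator were at nearly the same level in both groups. Together the 33 subunits took 0.0991% to 0.102% of all counts in each of the 6 libraries. Summed over all 33, Ep300 siRNA replicates 1 to 3 held 1014, 1008 and 1005 CPM, and control replicates 1 to 3 held 975.1, 1010 and 1000 CPM. The means were 1009 ± 4.55 and 995.1 ± 17.97 CPM (SD, n = 3 each), and the groups overlapped. These are levels relative to all mRNA in a bulk sample, in which fewer cells of a kind and less RNA per cell cannot be told apart.

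None of the 32 subunits high enough to test passed edgeR's adjusted p of 0.05, in either direction. Over all 15741 genes tested, 1068 (6.78%) passed, 435 of them higher (2.76%) and 633 lower (4.02%). With library sizes alone in place of TMM, that division was 316 higher and 788 lower. In the band of mean level that the tested subunits span, 2.69 to 86.7 CPM, 736 of 9068 genes (8.12%) passed. At an unadjusted edgeR p under 0.05 there were 5 subunits: Med12 and Med16 on the higher side, and Med14, Med26 and Med29 on the lower. Over all genes that was so for 22.2%, with 10.3% higher and 11.9% lower. By DESeq2, 1 subunit (Med29) passed the adjusted threshold, as did 1436 (11.6%) of the 12384 genes to which DESeq2 gave an adjusted p. By limma-voom 0 did, beside 1043 (6.63%) of all genes. Without Ep300 siRNA replicate 1, 0 of 32 passed, in a fit that called fewer genes in all (698 of 16237 tested).

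**Figure D1:**
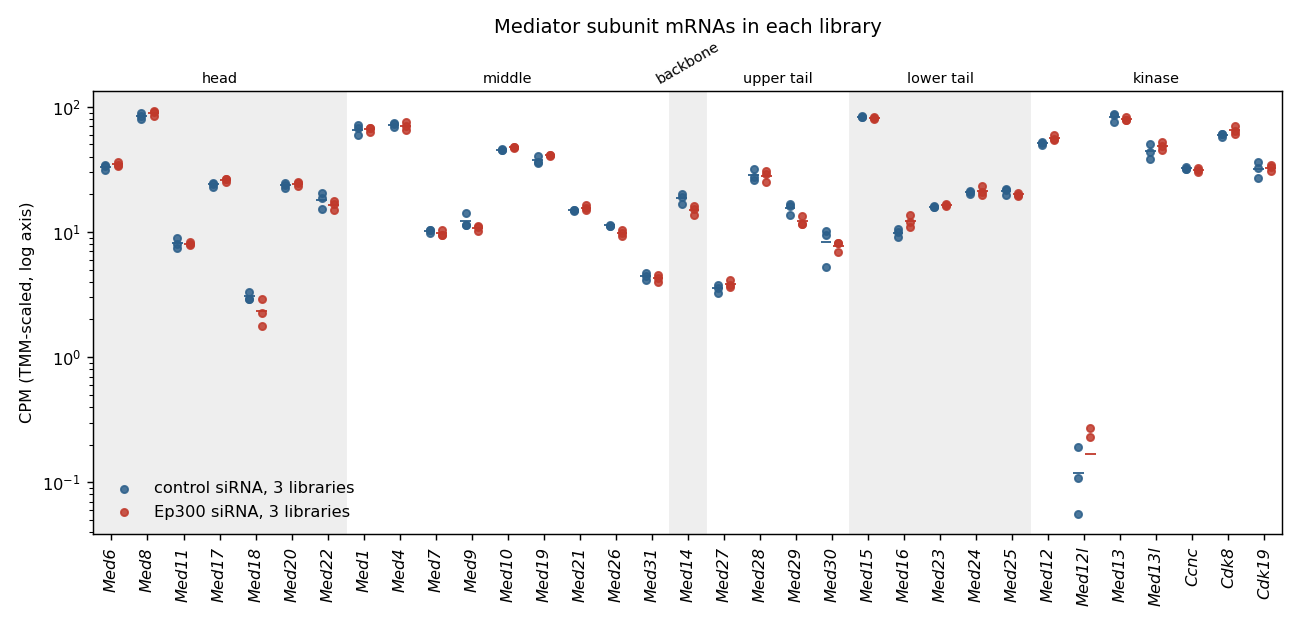
CPM of each of the 33 Mediator subunit genes (log axis) in the 3 control siRNA libraries (blue) and the 3 Ep300 siRNA libraries (red), with short bars at group means, grouped by module. Most pairs of columns overlap. Med12l lies far below the rest, and its value of 0 in Ep300 siRNA replicate 1 cannot be drawn on a log axis.

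The 95% intervals bound the changes only within the spread of these 6 libraries, which may be technical. The log2 fold changes of the 32 subunits ran from −0.40 (Med18) to 0.30 (Med16), with 16 above 0 and 16 below. Their median was −0.008, beside −0.004 for all genes tested. For 31 of 32 subunits the whole 95% interval lay inside a 1.5-fold change in either direction, Med18 being the exception. That holds for 67.2% of all genes tested. For 21 of 32 it lay inside a 1.25-fold change (36.7% of all genes), and for all 32 inside a 2-fold change (84.9%). These shares of all genes include genes below the subunits' band of level, and shares within that band were not computed. Each interval covers 1 gene and is not widened for the number of genes. These counts are from the reported fit alone. Of the 31, Med29 came nearest to the 1.5-fold bound, with a lower limit of −0.57. Its log2 fold change moved from −0.35 to −0.38 with library sizes alone, and whether its interval stayed inside there was not tested. The median SD between libraries of a group was 0.085 for the subunits on the log2 CPM scale, beside 0.131 over all genes tested and 0.108 over the 9068 genes in the subunits' band of level. For 10 of the 32 subunits it was above that last value. The 2 groups did not overlap for 11 of the 32 subunits, 5 higher and 6 lower. Over all genes tested that was so for 27.5%, with 13.0% higher and 14.4% lower.

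**Figure D2:**
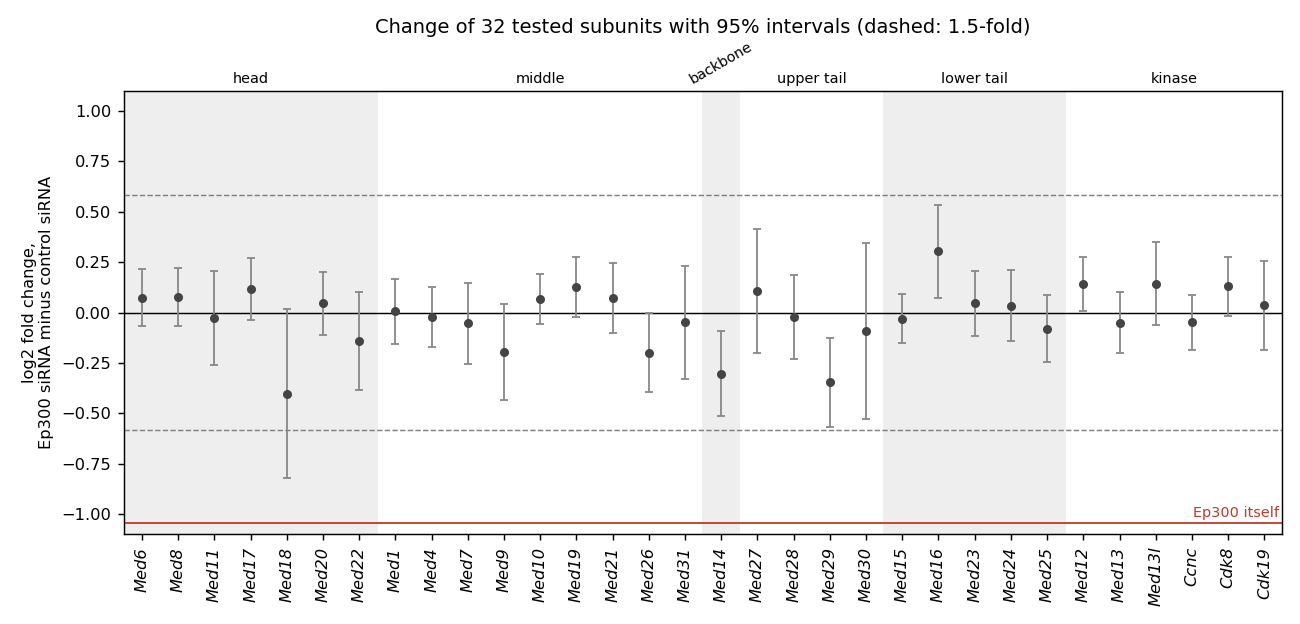
Log2 fold change of the 32 tested subunits (points) with 95% intervals from the edgeR fit (bars), by module. Dashed lines mark a 1.5-fold change and the red line marks Ep300 at −1.04. Only the interval of Med18 crosses a dashed line, and none reaches the Ep300 line.

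The head contacts the polymerase and TFIIB and is organised around MED17. Its 7 subunits had a summed level of 200.9 ± 5.25 CPM after Ep300 siRNA and 194.4 ± 6.84 CPM in controls (SD, n = 3), and none had an unadjusted edgeR p under 0.05. Med17 was at 26.4, 24.9 and 26.7 CPM after Ep300 siRNA and 24.8, 22.9 and 24.3 CPM in controls. The 2 groups just failed to overlap, at a log2 fold change of 0.12 ± 0.07 (SE, edgeR adjusted p = 0.369). Med8, the most abundant head mRNA, was at 83.7, 90.9 and 92.4 CPM against 79.4, 89.6 and 84.4 CPM, with overlapping groups. The head member with the smallest p was Med18 (chromosome 4, 132458731 to 132463921, minus strand), which pairs with MED20 in a mobile part of the head. It was at 2.90, 1.79 and 2.27 CPM after Ep300 siRNA and 2.94, 3.32 and 2.90 CPM in controls, so Ep300 siRNA replicate 1 lay at the control level and the other two below it. It is the lowest tested subunit, with 62 to 136 counts per library, and its estimate is the least precise but for that of Med30. It was estimated at −0.40 ± 0.19 on the log2 scale (SE, edgeR adjusted p = 0.249), with a 95% interval of −0.82 to 0.018. That value was −0.25 without Ep300 siRNA replicate 2 and −0.58 without Ep300 siRNA replicate 1. Med20, its partner, was at 0.045 ± 0.07. The other members, Med6, Med11 and Med22, lay between −0.14 and 0.072.

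The middle links the head to the kinase module and holds MED1, the docking subunit of nuclear receptors. Its 9 subunits summed to 275.7 ± 5.32 CPM after Ep300 siRNA and 273.6 ± 5.71 CPM in controls (SD, n = 3). Med1 was at 68.0, 67.3 and 62.7 CPM after Ep300 siRNA and 59.1, 67.2 and 71.0 CPM in controls. The control libraries spanned all of the Ep300 siRNA values, and Med1 was estimated at 0.006 ± 0.07 on the log2 scale (SE, 95% interval −0.16 to 0.17). Med26 (chromosome 8, 72494561 to 72548270, minus strand), which recruits elongation factors to Mediator freed of its kinase module, had the smallest p of the middle. It was at 9.35, 9.78 and 10.3 CPM against 11.2, 11.2 and 11.5 CPM. The 3 Ep300 siRNA libraries all lay below the 3 controls, at a log2 fold change of −0.20 ± 0.09 (SE, edgeR adjusted p = 0.214). Med9 was at −0.19 ± 0.11, with control replicate 1 at 14.2 CPM and the other controls at 11.3 and 11.4 CPM. The remaining members ran from −0.053 (Med7) to 0.13 (Med19), with Med4, Med10, Med21 and Med31 between them.

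MED14, the backbone on which head, middle and tail are held, had the second-smallest p of all subunits. Med14 (chromosome X, 12675369 to 12762073, minus strand) was at 13.8, 16.1 and 15.3 CPM after Ep300 siRNA and 16.6, 18.9 and 20.3 CPM in controls. Every Ep300 siRNA library lay below every control, with a gap of well under 1 CPM between the nearest libraries. The means were 15.1 ± 1.16 and 18.6 ± 1.83 CPM (SD, n = 3), and the log2 fold change of −0.30 ± 0.10 (SE, 95% interval −0.51 to −0.094) did not pass (edgeR adjusted p = 0.0844). The alternatives in which it passed included no filter on low counts (edgeR adjusted p = 0.0348) and the fit without control replicate 1 (edgeR adjusted p = 0.0357). Over all alternatives the adjusted p ran from 0.0348 to 0.256 and the log2 fold change from −0.38 to −0.23.

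The upper tail joins the backbone to the activator-binding tail. Its 4 subunits summed to 52.0 ± 3.04 CPM after Ep300 siRNA and 55.9 ± 5.35 CPM in controls (SD, n = 3). Med29 (chromosome 7, 28386146 to 28392708, minus strand) had the smallest p of all Mediator genes. It was at 13.4, 11.7 and 11.6 CPM after Ep300 siRNA and 16.7, 16.1 and 13.7 CPM in controls. The groups did not overlap, though Ep300 siRNA replicate 1 and control replicate 3 nearly met. Its estimated log2 fold change of −0.35 ± 0.10 (SE, 95% interval −0.57 to −0.13) ranked Med29 number 1275 of the 15741 genes by p. It missed the threshold at an edgeR adjusted p of 0.065. The alternatives in which it passed included DESeq2 (adjusted p = 0.0398), fits with library sizes alone (edgeR adjusted p = 0.0428) and with no filter on low counts (edgeR adjusted p = 0.0177), and the fit without control replicate 3 (edgeR adjusted p = 0.0454). Over all alternatives it ran from 0.0177 to 0.19.

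Med30 was the most variable of the 32 tested subunits. It was at 8.19, 8.19 and 6.94 CPM after Ep300 siRNA and 9.42, 5.24 and 10.1 CPM in controls. Control replicate 2 lay below all other libraries, and the log2 fold change was −0.093 ± 0.20 (SE). Its interval, −0.53 to 0.34, is too wide to show a change of the size seen for Med29. Med27 was at 0.11 ± 0.14 and Med28 at −0.022 ± 0.09.

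The lower tail is the landing place of many activators, among them the sterol regulator SREBP on MED15 and the MAP-kinase-regulated factor ELK1 on MED23. Its 5 subunits summed to 151.5 ± 2.66 CPM after Ep300 siRNA and 151.0 ± 1.78 CPM in controls (SD, n = 3). Med15 was at 79.8, 83.0 and 82.0 CPM against 83.0, 83.2 and 83.8 CPM, which leaves the groups just apart with a log2 fold change of only −0.030 ± 0.06 (SE, edgeR adjusted p = 0.806). Med23 was as even, at 16.3, 16.6 and 16.5 CPM against 15.9, 15.9 and 16.1 CPM. Non-overlapping groups can therefore stand on a difference of a few percent.

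Med16 (chromosome 10, 79894708 to 79908923, minus strand), a tail subunit that activators bind, had the highest log2 fold change of any subunit. It was at 13.6, 11.0 and 12.1 CPM after Ep300 siRNA and 9.94, 9.12 and 10.6 CPM in controls. All 3 Ep300 siRNA libraries lay above all 3 controls, by the least in replicate 2. The log2 fold change of 0.30 ± 0.11 (SE, 95% interval 0.073 to 0.54) did not pass (edgeR adjusted p = 0.112), and over all alternatives its adjusted p ran from 0.0834 to 0.297. Med24, which neighbours MED16 and MED23 in the tail, was at 0.034 ± 0.08, and Med25 at −0.081 ± 0.08.

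The kinase module summed to 313.9 ± 9.87 CPM after Ep300 siRNA and 301.5 ± 15.1 CPM in controls (SD, n = 3). Its member with the smallest p was Med12 (chromosome X, 101274030 to 101297465, plus strand), whose protein activates the CDK8 and CDK19 kinases. Med12 was at 54.2, 59.5 and 55.4 CPM after Ep300 siRNA and 49.6, 51.1 and 52.5 CPM in controls. The groups did not overlap, but the log2 fold change of 0.14 ± 0.06 (SE) did not pass (edgeR adjusted p = 0.192).

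Cdk8 (chromosome 5, 146231230 to 146302874, plus strand), the first of the paired kinases, was at 70.2, 63.9 and 61.0 CPM against 61.0, 56.9 and 60.1 CPM. The lowest Ep300 siRNA library met the highest control, and the log2 fold change was 0.13 ± 0.07 (SE, edgeR adjusted p = 0.281). Cdk19 (chromosome 10, 40339564 to 40483818, plus strand) was at 32.8, 34.6 and 30.5 CPM against 26.9, 32.5 and 36.2 CPM. Its controls spanned every Ep300 siRNA value. The log2 fold change, 0.035 ± 0.10 (SE), went to −0.072 without control replicate 1 and to −0.008 without Ep300 siRNA replicate 2, so no direction can be given for it.

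Ccnc (chromosome 4, 21727701 to 21759922, plus strand), which encodes cyclin C, the partner of both kinases, was at 30.4, 31.0 and 32.3 CPM against 33.3, 31.9 and 31.7 CPM. The groups overlapped, at −0.049 ± 0.06 (SE). Med13 (chromosome 11, 86267033 to 86357602, minus strand), which ties the kinase to the core, was at 78.9, 82.7 and 78.3 CPM against 75.1, 85.5 and 87.9 CPM. It too overlapped, at −0.050 ± 0.07. Its paralog Med13l (chromosome 5, 118560679 to 118765438, plus strand) was at 51.9, 49.0 and 44.9 CPM against 38.1, 50.4 and 43.5 CPM, with the lowest value in control replicate 1 and a log2 fold change of 0.14 ± 0.10. The Med13l value was 0.053 without control replicate 1 and 0.26 without control replicate 2.

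Med12l (chromosome 3, 59005825 to 59318682, plus strand) was nearly silent and was not tested. It had 0, 8 and 10 counts after Ep300 siRNA and 5, 2 and 7 in controls, where Med12 had 1589 to 2299. Nothing can be said of a change at that depth.

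Because paralogs take the same place in the module, their ratio was compared library by library, as the log2 ratio of CPM with a prior count of 2. With 3 libraries against 3, the exact two-sided permutation test cannot give a p below 0.1, so none of the 3 ratios could pass. The ratio of Cdk19 to Cdk8 averaged −0.99 ± 0.11 after Ep300 siRNA and −0.91 ± 0.24 in controls (SD, n = 3; exact permutation p = 0.7, adjusted over the 3 ratios p = 1). The difference of −0.088 was smaller than the spread of the controls and was 0 without control replicate 3. The ratio of Med13l to Med13 was −0.61, −0.76 and −0.80 after Ep300 siRNA and −0.98, −0.76 and −1.01 in controls. Control replicate 2 fell within the range of the Ep300 siRNA libraries, and the difference of 0.20 had an exact permutation p of 0.2 (0.6 adjusted over the 3 ratios). For Med12l to Med12 the exact permutation p was 1, on too few counts to read.

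**Figure D3:**
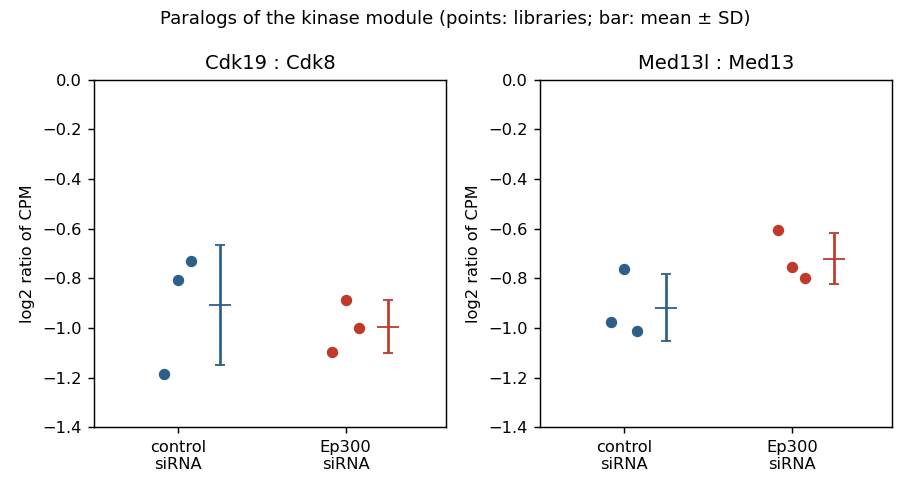
Log2 ratio of CPM of Cdk19 to Cdk8 (left) and of Med13l to Med13 (right) in each library (points), with mean ± SD beside them (n = 3), for control siRNA (blue) and Ep300 siRNA (red). The groups overlap in both panels, with means of −0.91 and −0.99 on the left and −0.92 and −0.72 on the right.

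Levels of different subunits can be compared only per length. As RPKM (CPM per kilobase of all annotated exons joined), Med8 was the highest in controls at 28.1 ± 1.70, followed by Med6 at 22.8 ± 0.98 and Med4 at 21.4 ± 0.892 (SD, n = 3). Med18 at 1.53 ± 0.116 and Med27 at 1.07 ± 0.0816 were the lowest but for Med12l. Measured against the longest principal transcript instead, a length chosen after the data were seen, Med8 was again the highest (73.7 ± 4.46 RPKM), with Med4 (54.1 ± 2.25) and Med10 (49.7 ± 0.569) next, and Med14 and Med18 were the lowest but for Med12l. The counts were the same under both lengths, so a principal transcript much shorter than the joined exons raises the RPKM. For Med10 these lengths are 913 and 4491 bases, and its count may include reads of an overlapping gene. Neighbours in the order of level often did not differ beyond their spread: of 32 neighbouring pairs, the control libraries overlapped in 20 by joined exons and in 19 by principal transcripts. Between the 2 groups no subunit moved by more than 4 places in the order by joined exons (Med9 and Med16 by 4), or by more than 3 in that by principal transcripts.

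The choice of length also sets the paralogs' proportions. In controls Cdk19 made up 47.3 ± 4.17% of Cdk8 plus Cdk19 RPKM by joined exons and 21.5 ± 2.76% by principal transcripts (SD, n = 3). After Ep300 siRNA the same shares were 45.8 ± 1.83% and 20.4 ± 1.20%. Med13l made up 27.1 ± 1.87% of its pair by joined exons and 37.5 ± 2.21% by principal transcripts in controls, and 29.9 ± 1.49% and 40.8 ± 1.71% after Ep300 siRNA. Under both lengths Cdk8 and Med13 were the more abundant of their pairs on average.

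Some subunits overlap other genes, and how many reads they share was not tested. No label or processing note says whether reads were assigned by strand, so a subunit's reads and those of an overlapping gene cannot be told apart. The clearest case is Med10, of whose joined exons 4168 bases (92.8%) lie within exons of Gm26819, a lincRNA on the other strand. Gm26819 had 1.02 to 1.03 times the Med10 count in every library, and its log2 fold change of 0.067 ± 0.06 (SE) matched the 0.066 ± 0.06 of Med10. The value of Med10 is therefore uncertain. Med29 shares 64 bases (5.0%) with the antisense gene Gm44710, which had 0.473 to 0.51 times its count and a log2 fold change of −0.35 ± 0.12 (SE, edgeR adjusted p = 0.0986). The log2 fold change of Med29 was also −0.35, and its value is uncertain as well. Smaller parts of Med31 (26.3%), Med20 (21.4%), Med7 (21.2%), Med12l (15.3%), Med26 (12.7%) and Med19 (11.9%) also overlap another gene on the other strand, and 2 of the same-strand overlaps are longer than the rest. Med12 shares 749 bases (9.7%) with Gm21986, which had 0.125 to 0.22 times its count. Med20 shares 513 bases (7.0%) with the protein-coding Gm20517, which had 0.74 to 0.922 times its count, so the value of Med20 is uncertain too.

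**Figure D4:**
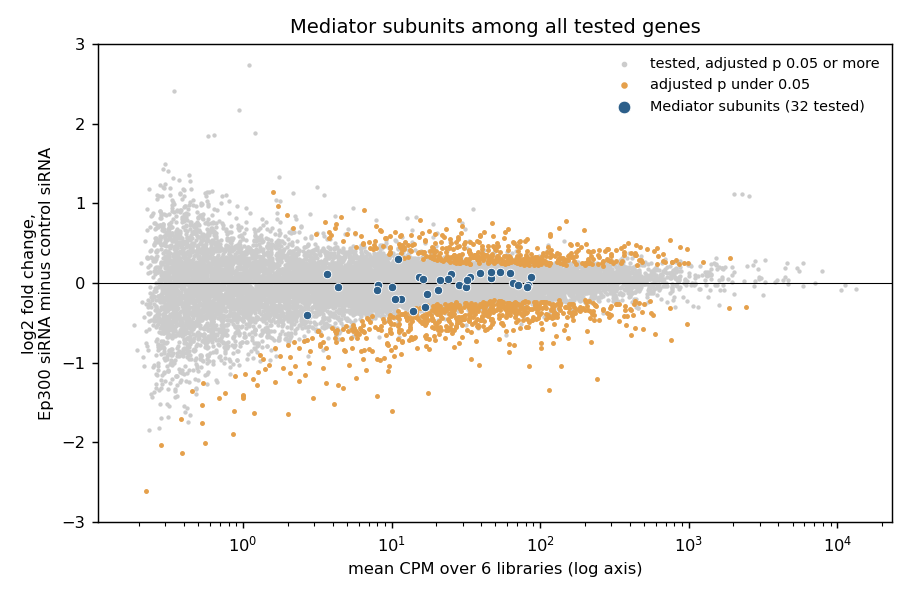
Log2 fold change against mean CPM over the 6 libraries (log axis) for the 15741 genes tested. Grey points did not pass, orange points have an edgeR adjusted p under 0.05, and blue points are the 32 tested Mediator subunits, none of which passed and which lie between −0.40 and 0.30.

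The machinery that Mediator works with was examined through 4 lists. The RNA polymerase II list holds genes with Polr2 symbols, and the TFIID list holds Tbp and genes with Taf symbols. Either may include associated factors. The remaining lists hold the other general factors from TFIIA to TFIIH, and factors of promoter-proximal pausing and elongation. Of 70 genes, 68 were tested, 2 rose, 0 fell and 66 did not pass edgeR's threshold, beside the 2.76% higher and 4.02% lower among all genes. At an unadjusted edgeR p under 0.05 there were 6 on the higher side and 2 on the lower, beside 10.3% and 11.9% of all genes. DESeq2 called 3 and limma-voom 2. The median log2 fold change over the 68 was 0.002.

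The clearest of them was Hexim1, which holds the elongation kinase P-TEFb in an inactive state. Hexim1 was at 78.4, 77.5 and 79.6 CPM after Ep300 siRNA and 53.3, 54.9 and 58.2 CPM in controls. The groups were far apart and even within themselves, and Hexim1 rose 1.42-fold (log2 fold change 0.50 ± 0.06, SE, edgeR adjusted p = 0.000865). It was the single gene of the 22 tested for pausing and elongation that passed. Of the 13 Polr2 genes listed, Polr2a, which encodes the largest and catalytic polymerase subunit, rose 1.24-fold. It was at 241.5, 232.0 and 224.1 CPM after Ep300 siRNA and 168.3, 199.0 and 196.2 CPM in controls, with control replicate 1 the lowest and the groups apart. It averaged 187.8 ± 16.96 CPM in controls and 232.5 ± 8.73 CPM after Ep300 siRNA (SD, n = 3), at 0.31 ± 0.07 on the log2 scale (SE, edgeR adjusted p = 0.0278). That call was lost without any 1 of the Ep300 siRNA libraries or without control replicate 3, at edgeR adjusted p from 0.0508 to 0.0814.

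No gene of TFIID or the other general factors passed in the reported edgeR fit. The TFIID member with the smallest p, Taf3, which reads methylated histone H3 at promoters, was at 98.5, 106.4 and 93.6 CPM against 78.7, 88.0 and 85.5 CPM. The groups did not overlap, and it missed the threshold narrowly (log2 fold change 0.24 ± 0.07, SE, edgeR adjusted p = 0.0573). Taf3 passed by DESeq2 (adjusted p = 0.0215) and with no filter on low counts (edgeR adjusted p = 0.0264), and over all alternatives its adjusted p ran from 0.0215 to 0.184. Among the general factors the smallest p was that of Ercc3, the DNA translocase of TFIIH. It was at 90.9, 89.2 and 83.4 CPM against 73.4, 81.6 and 79.1 CPM, groups that did not overlap, and at a log2 fold change of 0.17 ± 0.06 (SE, edgeR adjusted p = 0.137). Whether Mediator and these lists differ in their response was not tested.

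**Figure D5:**
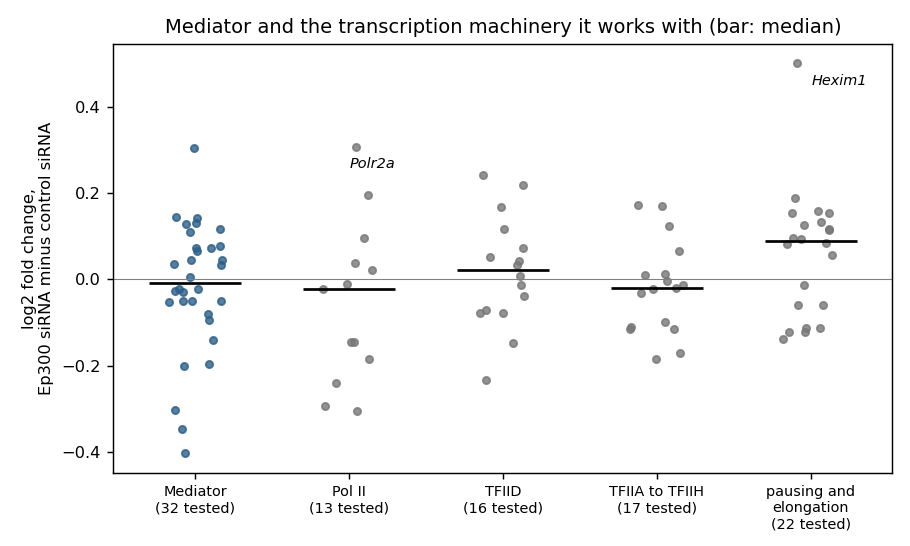
Log2 fold changes of the tested genes of Mediator and of 4 lists of transcription machinery (points, spread sideways at random), with the median of each list as a bar. Medians lie between −0.022 and 0.089, and Hexim1 at 0.50 is the highest point.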

How the data were processed

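RNA of 6 RAW264.7 libraries was measured. The authors deposited raw read counts per gene symbol, 1 column per library, matched here by column name. The tools listed are STAR 2.5.3a, featureCounts, fastp 0.23.4 and edgeR 3.12.1, on GRCm38, per the submitters' processing notes. For annotation, strand, multimapping and mates the settings were not stated there. Of counts from 1 to 4, 79.8% to 80.9% were even, and halved counts were an alternative. The cause of the many even counts was not tested. As a separate limit, PCR copies are not independent molecules.

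Genes were tested across the whole table with edgeR 4.0.16 in R 4.3.3 (filterByExpr, TMM, quasi-likelihood F-test, two-sided, Benjamini-Hochberg, threshold 0.05). SEs come from the log2 fold change and F, and intervals are at 95%. Medians and counts describe lists, with no set test. The fit was also run on simulated counts (15741 genes, 200 of them changed), and no result here rests on that run. Replicates differed well beyond counting noise (chi-square 9.19 to 32.9 per degree of freedom). Lengths are from GENCODE M21. Alternatives used DESeq2 1.42.0, limma 3.58.1, other scalings and filters, a replicate block, and each library left out. Members and lists were chosen with earlier results of these data known. Subunits named in full are those called, those with the smallest p of a module, and the kinase module, and in each machinery list the smallest p among calls, or overall without one. Med17, Med8, Med20, Med1, Med9, Med15, Med23 and Med30 were given in more detail after their values were seen. Figures used matplotlib 3.10.9.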

Additional observations from a re-analysis of the deposited data

How the results depend on the processing

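No alternative called a subunit higher. Subunits called lower, 0 in the reported fit and also the number called in all, were 1 (Med29) with library sizes alone and by DESeq2. Those fits called 1104 of 15741 and 1436 of 12384 genes. With no filter on low counts the subunits called lower were 2 of 33 (Med14 and Med29), beside 1721 of 30207 genes. With 1 library left out the subunits called lower were 0 to 1, and machinery genes called 1 to 2. Genes called then ran from 490 of 16155 (without control replicate 2) to 1054 of 16136 (without control replicate 1). The subunits' median log2 fold change was −0.042 with library sizes alone, where all genes shifted by −0.034, and −0.017 to 0.030 with 1 library left out. The log2 fold change of Cdk19 was −0.072 to 0.142 with 1 library left out, its ratio to Cdk8 −0.226 to 0, and the ratio of Med12l to Med12 −0.548 to 0.722. The cause of these shifts was not tested.

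Same-numbered libraries of the groups did not deviate together (correlations 0.087, 0.020 and −0.047), and Ep300 siRNA replicate 2 correlated best with control replicate 3. With the replicate block 1357 of 15741 genes were called, with 2 of 32 subunits lower (Med14, edgeR adjusted p = 0.0433, and Med29, 0.0382), and Taf3 passed (0.0338). Depth limits Med12l (0 to 10 counts) and Med18 (62 to 136).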

Other observations

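Members of the complex lie on 17 chromosomes, with 7 of 33 on chromosome 11 (Med1, Med7, Med9, Med11, Med13, Med24 and Med31). Their log2 fold changes ran from −0.195 (Med9) to 0.034 (Med24), and none passed edgeR's adjusted p, beside 6.78% of all genes tested. By DESeq2 0 passed, beside 11.6%, and by limma-voom 0, beside 6.63%. At an unadjusted edgeR p under 0.05 there were 0, beside 22.2%. A list of 7 genes is too short to tell 0 from those shares. The X-linked pair went opposite ways in value, Med12 at 0.14 and Med14 at −0.30, neither past the threshold.

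Brip1os, an antisense gene that shares 800 exon bases with Med13, had 0.631 to 0.746 times the Med13 count in each library and a log2 fold change of −0.010 ± 0.06 (SE, edgeR adjusted p = 0.946).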
